A study of Mus musculus with 4 samples.

Results

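The 10 genes described here, Hspa9, Hspd1, Hspe1, Lonp1, Clpp, Htra2, Gdf15, Fgf21, Opa1 and Oma1, encode chaperones and proteases of the mitochondrial matrix and intermembrane space, the secreted mitokines, and both partners of the OPA1-OMA1 axis. They were chosen by name from 21900 coding genes, with earlier results of these data known. Binding of the transcription factor ATF4 at each was read as every peak with its summit inside the gene or within 50 kb of it. The peaks came from chromatin immunoprecipitation and sequencing (ChIP-seq) with an ATF4 antibody in primary cortical neurons of CD1 mouse embryos, an outbred stock, taken at E14.5-15. Neurons labelled Opa1 knock-down carried shOpa1, a short hairpin RNA against Opa1, and neurons labelled WT carried the hairpin shControl. Both cultures received lentivirus on day 6 and the mitotic inhibitor cytosine arabinoside at 2 µM, and were harvested on day 11. Each condition was 1 ATF4 library. A hairpin lowers its target and does not delete it, and the number of embryos or cultures behind a library is not given in the sources. IgG and input libraries from shControl neurons were not analysed here.

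Mitochondria import most of their proteins unfolded, and matrix chaperones and proteases fold them or remove what fails to fold. When this system is overloaded, cells switch on nuclear genes for more chaperones and proteases, which is known as the mitochondrial unfolded protein response. In mammals much of the nuclear answer to mitochondrial damage runs through ATF4: the protease OMA1, activated by inner membrane stress, cleaves OPA1 and DELE1, and DELE1 activates the kinase HRI, which phosphorylates eIF2 alpha. ATF4 binds composite C/EBP-ATF elements, and its targets include genes of hormones such as GDF15 and FGF21 that report mitochondrial stress to other tissues.

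Peaks stood at 3 of the 10 genes in the shOpa1 list and at 0 of 10 in the shControl list. Hspa9 had 3 peaks, and Gdf15 and Fgf21 had 1 each. The other 7 genes, among them Opa1 itself, had none within 50 kb in either list. Across all coding genes, 1363 of 21900 had such a peak in the shOpa1 list (6.22%) and 203 of 21900 in the shControl list (0.927%). With the window narrowed to 5 kb the counts at the 10 genes were again 3 and 0, against 2.65% of coding genes in the shOpa1 list and 0.324% in the shControl list. The farthest of the summits lay 4305 bp from its gene, so the narrower window could not change the counts at the 10 genes. The 10 genes span 1601 to 83847 bp. Among the 16689 coding genes in that range of length, 5.83% had a peak within 50 kb in the shOpa1 list and 0.923% in the shControl list. The 10 genes are not a neutral sample of coding genes, as they include known ATF4 targets and were chosen with earlier results known. Their counts therefore describe them and no more. With 1 library per condition, the difference between shOpa1 and shControl has no replicate check and was not tested.

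**Figure D1:**
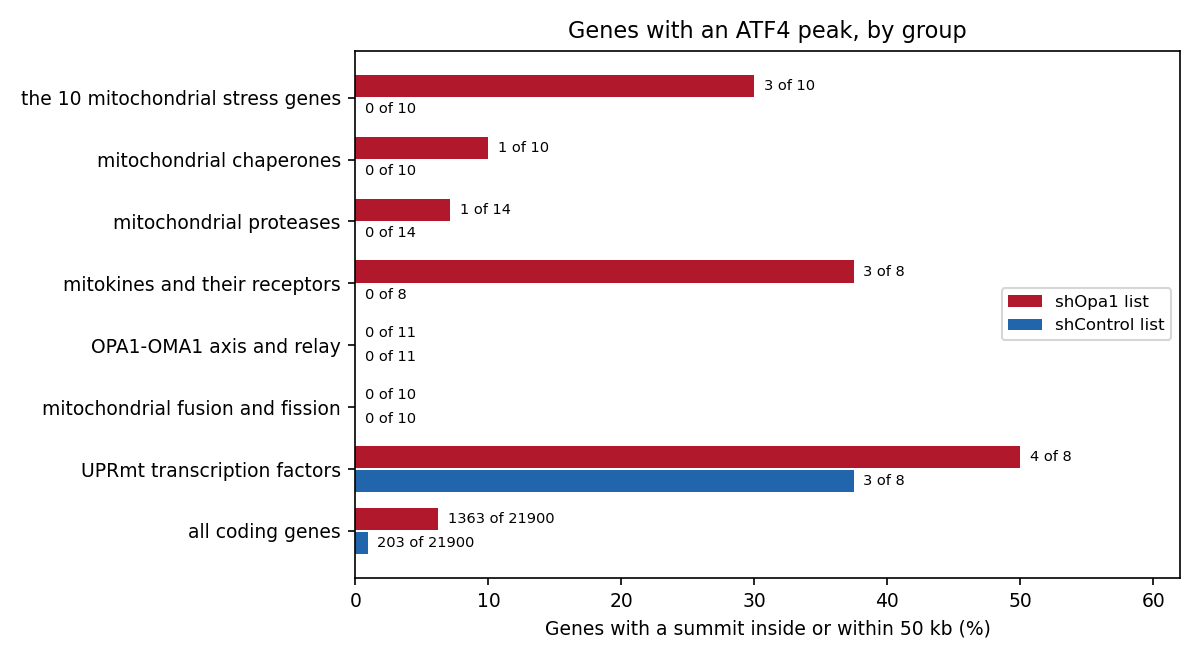
Share of genes with an ATF4 summit inside the gene or within 50 kb, for the 10 mitochondrial stress genes, the 6 wider pathway groups and all coding genes. Upper bars are the shOpa1 list and lower bars the shControl list, and the labels give the genes with a peak out of the genes in the group. The 10 genes stand at 3 of 10 in the shOpa1 list and 0 of 10 in the shControl list.

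The lists differ in size, which touches every absence in the shControl list. The shOpa1 list held 952 peaks and the shControl list 93, and 80 peaks of each overlapped a peak of the other. The lowest fold enrichment over the caller's background listed was 3.18 in the shOpa1 list and 3.71 in the shControl list. The smallest tag number of a peak was 13.68 in the shOpa1 list and 15 in the shControl list. Read depth is unknown, so a site with no shControl peak is not shown to be unbound. Fold, score and tag number are the authors' values for a peak within its list.

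Among the chaperones, Hspa9 stood apart from the chaperonin pair Hspd1 and Hspe1. Hspa9 encodes mitochondrial HSP70 (mortalin), which pulls proteins into the matrix and folds them there. The gene (mm10, chromosome 18, 34937414 to 34954351) had 3 peaks in the shOpa1 list and none in the shControl list. The strongest, at chr18:34954251-34954977, had its summit 264 bp outside the higher-coordinate end of the gene, with 79 tags (95% Poisson interval 62.5 to 98.5) and a fold of 19.5. A second peak, at chr18:34952478-34953107, had its summit inside the gene, 1558 bp from the same end, with a fold of 6.69 and 29 tags (19.4 to 41.6). The third, at chr18:34958379-34958954, lay 4305 bp outside that end, with a fold of 6.15 and 27 tags (17.8 to 39.3).

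The 3 Hspa9 peaks thus lined up around a single end of the gene. Their summits were 1822 and 4041 bp apart, 5863 bp from first to last. Of the 952 shOpa1 peaks, 29 had another summit of the list within 10 kb, and 3 had at least 2 others. Those 3 were the Hspa9 peaks. Within 5 kb, 581 coding genes had at least 1 shOpa1 summit and 8 had at least 3. Hspa9, at 16.9 kb, was the shortest of the 8, and the next was Ccdc192 at 197 kb. These counts of neighbouring summits were not planned, and with the first score form alone 2 of the 3 Hspa9 peaks were left. The coding gene next nearest to the strongest summit was Etf1, a translation termination factor, 22607 bp away. Which end of Hspa9 is its start, and exon positions, were not given in the tables used.

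The strongest Hspa9 peak had no shControl counterpart. It was rank 31 of 952 in the deposited order. Of the 36 shOpa1 peaks with a fold at least as high, 30 overlapped a shControl peak (95% Clopper-Pearson interval 67.2 to 93.6%) and 6, Hspa9 included, did not. Of the 13 within 1 fold unit of it, itself included, 8 did (61.5%, interval 31.6 to 86.1%). Peaks without a shControl partner were then limited to those within 50 kb of a coding gene. The closest to it in fold lay inside Rabep1 (19.6), 2756 bp from Socs7 (18.6) and inside Abr (18.6). For the weaker Hspa9 peaks the absence was common, as 8 of 349 shOpa1 peaks within 1 fold unit of the peak at 6.69, and 5 of 252 within 1 unit of the peak at 6.15, overlapped a shControl peak. The nearest shControl summit to Hspa9 was 25776 kb away.

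**Figure D2:**
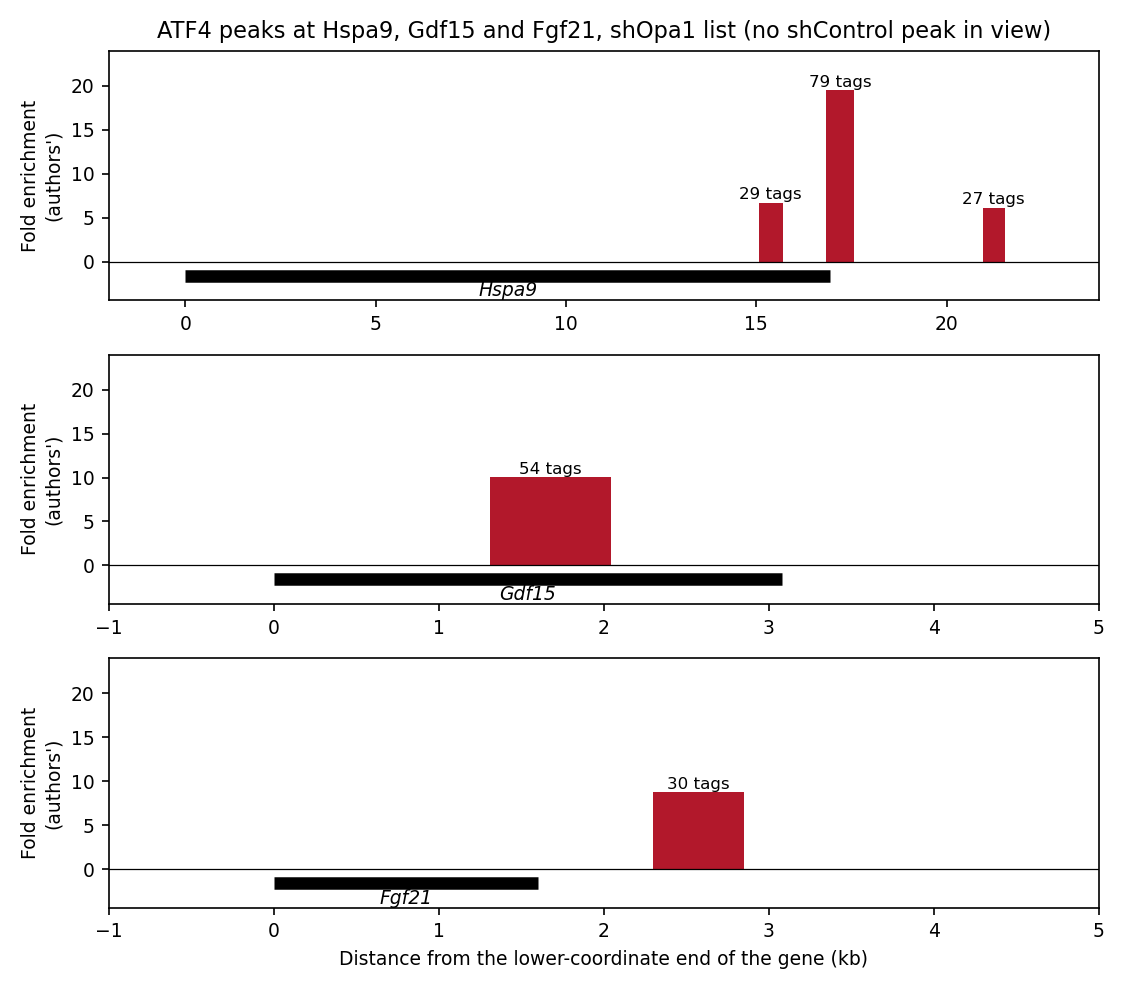
ATF4 peaks of the shOpa1 list at Hspa9, Gdf15 and Fgf21. Each bar spans the peak along the horizontal axis (kb from the lower-coordinate end of the gene) and its height is the authors' fold enrichment; black bars are the genes. The Hspa9 peaks reach 6.69, 19.5 and 6.15 around a single end of the gene, the Gdf15 peak (10.01) lies inside its gene and the Fgf21 peak (8.76) outside, and no shControl peak falls in any panel.

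Hspd1 and Hspe1 encode the chaperonin HSP60 and its lid HSP10, which form a folding chamber in the matrix and are the classic readout of the mitochondrial unfolded protein response. They sit head to head on chromosome 1 and overlap at their starts, so they share a neighbourhood and are not separate observations. Neither had a peak within 50 kb. The nearest shOpa1 summit was 1119 kb from Hspd1 and 1115 kb from Hspe1, and it was the same peak, with a fold of 9.08 and 31 tags. The nearest shControl summit was 42542 kb from Hspd1. No ATF4 peak was thus listed in this neighbourhood, at the depth of these libraries.

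The proteases had no peak. Lonp1 encodes the ATP-dependent matrix protease LONP1, Clpp the proteolytic subunit of the ClpXP protease, and Htra2 a serine protease of the intermembrane space. On chromosome 17 the same shOpa1 peak, inside Cntnap5c with a fold of 8.34, was the nearest to Lonp1 (1182 kb) and to Clpp (812 kb). The nearest shControl summit was 14210 kb from Lonp1 and 13841 kb from Clpp. Htra2 came closest to having a peak: its nearest shOpa1 summit, with a fold of 15.3 and 69 tags, lay 262599 bp away inside Mthfd2, a mitochondrial folate enzyme gene and known ATF4 target. The farthest assigned summit was 4305 bp from Hspa9, and no summit of either list lay between 4305 and 262599 bp from any of the 10 genes. The nearest shControl summit to Htra2 was 14582 kb away.

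Both mitokine genes had a peak in the shOpa1 list. Gdf15 encodes a secreted member of the TGF beta superfamily that acts through the hindbrain receptor GFRAL and is a marker of mitochondrial disease. Its peak, at chr8:70630700-70631435, was rank 119 in the deposited order and rank 284 by fold. It had 54 tags (95% Poisson interval 40.6 to 70.5) at a fold of 10.01. The shControl list had no peak there, and its nearest summit was 471 kb away. The summit lay inside the 3078 bp gene, 1027 bp downstream of the nearer of its 2 annotated starts and 1388 bp downstream of the outer one. The lncRNA gene Gm34154 was 1495 bp from it and the next coding gene, Lrrc25, 10218 bp. Of 167 shOpa1 peaks within 1 fold unit of it, 5 overlapped a shControl peak (2.99%, 95% Clopper-Pearson interval 0.979 to 6.85).

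Fgf21 encodes a hormone of the fibroblast growth factor family that signals through beta-Klotho, and in mitochondrial myopathy it is released into the blood. Its peak, at chr7:45616188-45616741, was rank 506 in the deposited order and rank 386 by fold. It had 30 tags (95% Poisson interval 20.2 to 42.8) at a fold of 8.76. In the shControl list no peak was listed there, and the nearest summit, the site near Atf5, was 795 kb away. The Fgf21 summit was 975 bp upstream of the annotated start. It fell between Fgf21 and Fut1, a fucosyltransferase gene on the opposite strand whose start was 1141 bp away on the other side, so position alone does not assign the peak to either gene. Of 214 shOpa1 peaks within 1 fold unit, 5 overlapped a shControl peak (2.34%, 0.763 to 5.37). The Gdf15 and Fgf21 peaks were therefore of a height at which few shOpa1 peaks had a shControl partner.

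**Figure D3:**
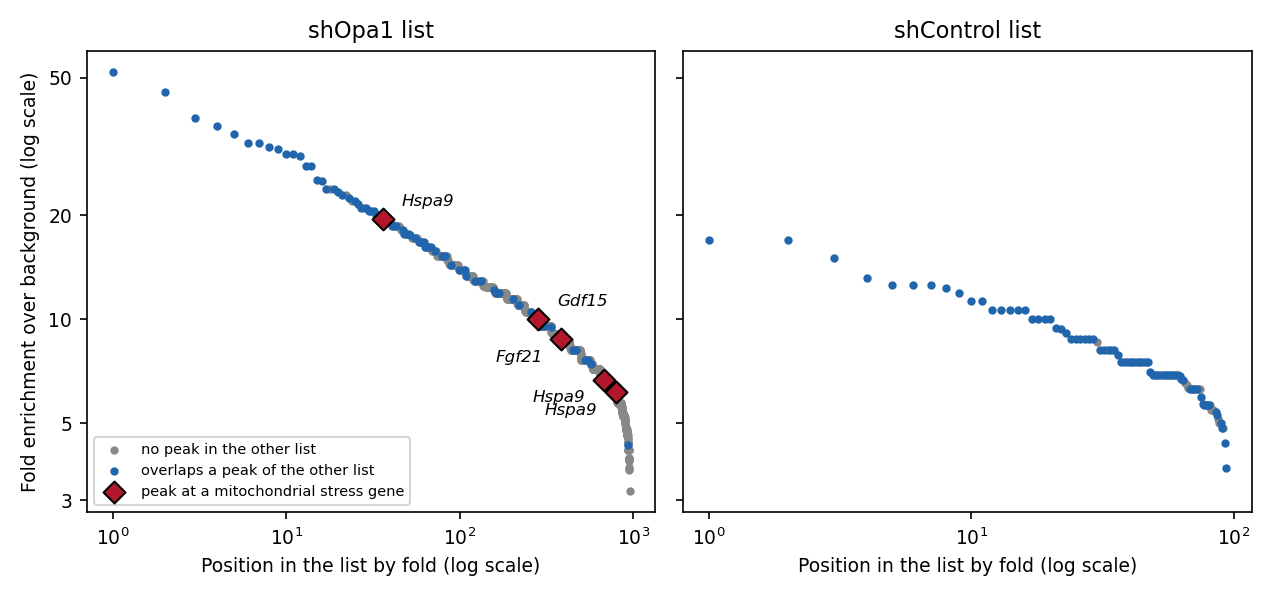
Authors' fold enrichment of every peak (log scale) against its position in the list by fold (log scale), shOpa1 list left and shControl list right. Blue points overlap a peak of the other list, grey points do not, and diamonds are the peaks at the mitochondrial stress genes. The strongest Hspa9 peak, at 19.5, lies among both blue and grey points (8 of 13 within 1 fold unit overlap a shControl peak), while Gdf15 (10.01), Fgf21 (8.76) and the weaker Hspa9 peaks lie where most are grey.

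Promoter sequences were searched for the core of the C/EBP-ATF element, TGATGNAA on either strand, in windows of 250 bases before to 50 after each annotated start (RefSeq, GRCm38.p6, which has the coordinates of mm10). Of the 10 genes, 8 had a window, 10 windows in all, and Fgf21 was the 1 gene with a match. Hspa9 and Htra2 had no window in the table. None of the 10 windows was overlapped by a peak of either list. Among all 32851 windows 3.97% held a match. Of the 99 windows overlapped by a shOpa1 peak 30.3% did (95% Clopper-Pearson interval 21.5 to 40.4), and of the 19 overlapped by a shControl peak 52.6% (28.9 to 75.6). Those 99 and 19 windows belonged to 89 and 18 genes. Windows of the same gene can overlap, so the intervals treat some related windows as separate. Below are the bases before the annotated start of both mitokine genes, which had a peak nearby, and of Opa1, which had none, each 5′ to 3′ on the gene's own strand and without bases of its own annotated span. The Gdf15 stretch runs into the lncRNA gene Gm34154. Capitals mark the match.
Fgf21, chr7:45615491-45615740, minus strand: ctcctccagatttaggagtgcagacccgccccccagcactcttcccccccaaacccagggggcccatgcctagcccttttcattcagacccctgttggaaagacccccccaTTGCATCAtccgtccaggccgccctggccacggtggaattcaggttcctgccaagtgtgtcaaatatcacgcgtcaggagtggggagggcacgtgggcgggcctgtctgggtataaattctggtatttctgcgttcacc
Gdf15, chr8:70632471-70632706, minus strand: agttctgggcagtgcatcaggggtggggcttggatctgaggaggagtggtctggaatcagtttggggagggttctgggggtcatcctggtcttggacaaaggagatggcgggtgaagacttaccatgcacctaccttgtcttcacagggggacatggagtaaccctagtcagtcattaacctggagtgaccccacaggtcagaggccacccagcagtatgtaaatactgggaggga
Opa1, chr16:29579084-29579280, plus strand: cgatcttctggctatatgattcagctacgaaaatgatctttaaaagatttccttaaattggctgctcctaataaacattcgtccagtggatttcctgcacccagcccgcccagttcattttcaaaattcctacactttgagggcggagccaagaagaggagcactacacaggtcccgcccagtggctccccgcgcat

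The Fgf21 match, TTGCATCA as printed and TGATGCAA on the other strand, covered positions -139 to -132 relative to the start. It also met the stricter form TGATGCAA, which 0.895% of all windows held, 21.2% of those overlapped by a shOpa1 peak and 36.8% of those overlapped by a shControl peak. The match was 559 bp from the nearer edge of the Fgf21 peak and 836 bp from its summit, so it lay outside the peak. The Gdf15 and Opa1 stretches held no match. A match is a description of the letters and not evidence of binding, and the sequence under the peaks themselves was not used here.

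Neither gene of the OPA1-OMA1 axis had a peak. Opa1 encodes the dynamin-like GTPase that fuses inner membranes and shapes cristae, and it is the target of the hairpin. Its nearest shOpa1 summit was 702 kb away, inside Mb21d2, with a fold of 6.03 and 32 tags. The nearest shControl summit was 6392 kb away. Oma1 encodes the stress-activated metalloprotease that cleaves OPA1. Its nearest shOpa1 summit was 494 kb away, inside Sgip1, with a fold of 11.5, and its nearest shControl summit 5462 kb. ChIP peaks do not measure transcript levels, so the extent of the Opa1 knock-down was not checked by these data.

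**Figure D4:**
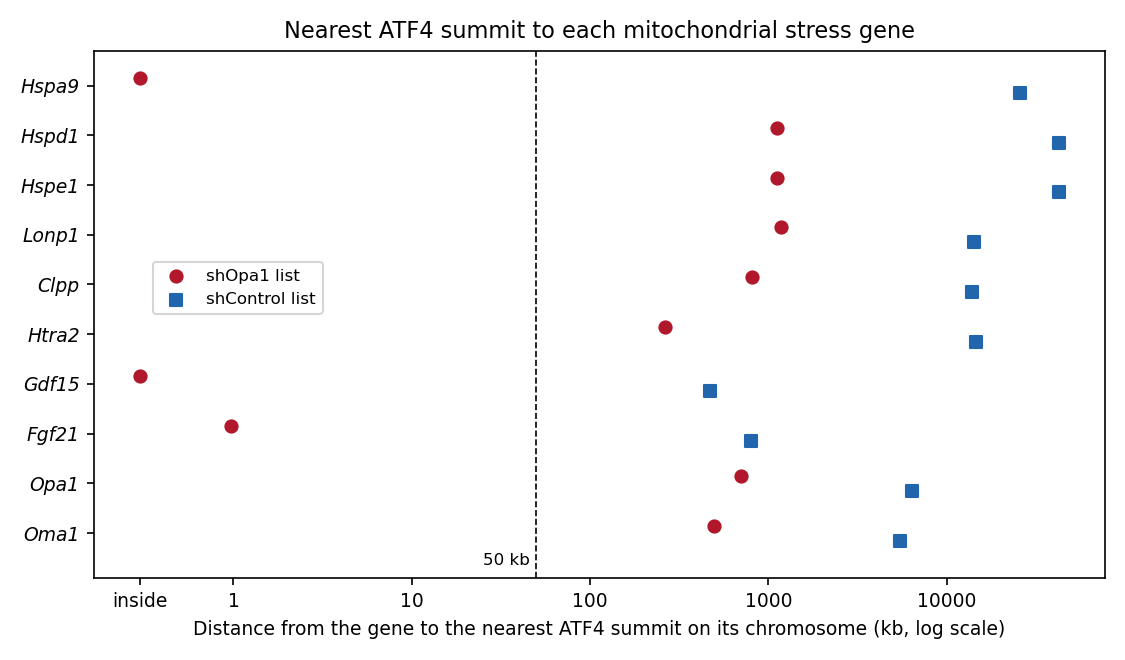
Distance from each of the 10 genes to the nearest ATF4 summit on its chromosome (kb, log scale; summits within the gene are drawn at "inside"), with shOpa1 as circles above shControl as squares. Hspa9, Gdf15 and Fgf21 lie left of the dashed 50 kb line in the shOpa1 list, every other shOpa1 distance is 263 kb or more, and all 10 shControl distances are 471 kb or more.

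The wider pathway was read from 6 lists holding 58 genes, the 10 included. In all, 9 had a summit inside or within 50 kb in the shOpa1 list (15.5%) and 3 in the shControl list (5.17%), beside the 6.22% and 0.927% of all coding genes in the same lists. Of the 48 genes outside the 10, 6 had a peak in the shOpa1 list and 3 in the shControl list. These lists include known ATF4 targets, so the counts describe them and no more.

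Mitochondrial chaperones had 1 of 10 genes with a peak in the shOpa1 list, which was Hspa9, and 0 of 10 in the shControl list. For mitochondrial proteases the counts were 1 of 14 in the shOpa1 list, a share close to the 6.22% of all coding genes, and 0 of 14 in the shControl list. That gene was Pmpca, a subunit of the mitochondrial processing peptidase, 48484 bp from a peak of fold 6.69 that lay inside Sec16a. Mitokines and their receptors had 3 of 8 in the shOpa1 list and 0 of 8 in the shControl list, the third gene being Angptl6, a secreted angiopoietin-like protein, with a summit inside the gene, 35 tags (95% Poisson interval 24.4 to 48.7) and a fold of 8.6. The OPA1-OMA1 axis and its relay, with Dele1 and Eif2ak1, the HRI gene, had 0 of 11 in both lists. Fusion and fission genes such as Mfn2 and Dnm1l had 0 of 10 in both. At the shOpa1 background of 6.22%, counts of 0 or 1 in lists of this size do not set a list apart from other genes. Nor do counts of 0 at the shControl background of 0.927%.

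Transcription factors linked to the mitochondrial unfolded protein response, a list that also holds the pseudokinase gene Trib3, had 4 of 8 genes with a peak in the shOpa1 list and 3 of 8 in the shControl list. The shares of all coding genes were 6.22% and 0.927%. This list was chosen with earlier results of these data known, so its counts describe it and no more. Atf5, thought to be the mammalian counterpart of the worm regulator ATFS-1, had 117 tags at its shOpa1 peak and 47 at its shControl peak, both upstream of Atf5 and inside the neighbouring Il4i1b. The peak just upstream of Ddit3, which encodes CHOP, lay inside Mbd6 and had 109 and 30 tags, and that at Cebpb 71 and 26 tags, in the shOpa1 and shControl lists. A further shOpa1 peak in the Ddit3 window, 15366 bp away and inside Mars1, had a fold of 12.9 and 50 tags, and no shControl peak overlapped it. Whether tags were scaled for depth is not given in the sources, so these pairs are not a measured change. Trib3 had a shOpa1 peak alone, with its summit 8 bp downstream of an annotated start and 63 tags (95% Poisson interval 48.4 to 80.6). The 3 pathway genes with a peak in the shControl list, Atf5, Ddit3 and Cebpb, were all of this group.

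The label of the culture could not be tested with expression markers in these data. Of 5 neuron marker genes, Syt1 had a peak far inside the gene in the shOpa1 list (fold 5.26, 18 tags) and 0 had one in the shControl list. The 15 markers of astrocytes, the oligodendrocyte lineage and microglia had none within 50 kb in either list. Among all coding genes the shares were 6.22% and 0.927% in the shOpa1 and shControl lists, so these counts do not set the markers apart.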

How the data were processed

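ATF4 ChIP-seq libraries of shOpa1 and shControl neurons were analysed, 1 per condition, from the authors' deposited peak lists, tied to their libraries by hairpin name. Per the submitters' processing notes MACS2, deepTools and MultiQC were used on mm10, and chromatin was cross-linked for 30 minutes and sheared to about 150 bp, per the labels' protocols. Depth, thresholds, aligner and the control library of the calls are not given in the sources. The authors' deposited name of each peak holds its rank, score, fold enrichment (a ratio), length, summit and tags. The score has 2 forms: 886 shOpa1 and 84 shControl peaks have a length equal to their interval and a score of at least 50.03, and the others, 66 and 9, do not and are mostly lower. Of the Hspa9 peaks, the weakest is of the second form. Starts and ends are printed as deposited and read as 1-based.

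Gene positions came from RefSeq, GRCm38.p6, and start sites and strands from the RefSeq promoter table. All 81 list entries matched a coding gene. Peaks of both lists were called shared at an overlap of at least 1 bp. Counts of peaks within 1 fold unit of a member peak include that peak. Poisson and Clopper-Pearson intervals are exact, at 95%, and cover counting error only. The Poisson intervals take tags as raw counts, which the sources do not state, and the smallest shOpa1 tag number, 13.68, is not whole. No difference between conditions was tested. Every member, every pathway gene with a peak in the window, and the gene nearest to or holding each member peak were named. Also named were the 3 unshared peaks nearest in fold to the strongest member peak, among those within 50 kb of a coding gene. Fut1, Etf1, Lrrc25, Gm34154, Ccdc192 and the genes beside distant summits were named after their values were seen. The genes and lists were chosen with earlier results of these data known. Alternatives covered the window, the assignment to a gene, fold, score, score form, overlap and motif. Of the strong shOpa1 peaks without a shControl partner, 1 is not reported here. Motifs under peaks, though planned, were not searched because only promoter sequences were used. Steps were tested on simulated peaks and sequences. Python 3.11.15, pandas 2.3.3, numpy 2.4.6, scipy 1.17.1 and matplotlib 3.10.9 were used.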

Additional observations from a re-analysis of the deposited data

How the results depend on the processing

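Across 25 alternative values for the main counts, none moved by more than 1.5 times or, for background shares, out of its interval. A change from 3 to 2 is exactly 1.5 times, so it was not counted as a move. The genes with a peak numbered 3 in the shOpa1 list at windows of 5, 10 and 100 kb, with the nearest coding gene alone, with any base of the peak and with the first score form alone. At those windows the count could not change, because no summit lay between 4305 and 262599 bp from any of the 10 genes. They numbered 2 at a fold of at least 10 and 2 among its higher-scoring peaks, both without the Fgf21 peak. The shControl count was 0 under all 8 alternatives. That outcome was fixed in advance, as the nearest shControl summit to any of the 10 genes was 471 kb away. Of the 3 Hspa9 peaks, 1 was left at a fold of at least 10 and likewise among the higher-scoring peaks, and 2 with the first score form alone, since fewer peaks enter. No member peak was shared under a reciprocal overlap of 50% or with summits within 200 bp, which the same distance also fixed. No paired analysis was possible because shOpa1 and shControl have 1 library apiece, so none could be left out either. Both motif alternatives under peaks were not run for want of sequence. Depth is unknown, and peaks of the fold seen at Gdf15 and Fgf21 lie where the shorter shControl list holds few partners.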

Other observations

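These values were looked up after the results above were seen and have no test. Beside the Hspa9 peak, 5 shOpa1 peaks with a fold of at least 19.5 had no shControl partner. The 4 named here lay inside Slc7a5, which carries large neutral amino acids as LAT1 (fold 22.0, 111 tags), inside Rabep1, an endosomal fusion protein (19.6, 69 tags), 183048 bp from Sox11 (21.0, 80 tags) and 139551 bp from 1600014C23Rik (23.9, 97 tags).

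With strand and start sites from the promoter table, 111 of 907 shOpa1 summits lay within 1 kb of an annotated start, and 25 of 90 shControl summits did. The remaining 45 shOpa1 and 3 shControl peaks were on a chromosome the table did not hold, that of Hspa9. The Fgf21 summit was among the 111, and the Gdf15 summit, at 1027 bp, was just outside that distance.

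At the level of genes, 191 of the 1363 coding genes with a shOpa1 summit within 50 kb also had a shControl summit, and 191 of the 203 with a shControl summit had a shOpa1 one. Hspa9, Gdf15 and Fgf21 were among those with a shOpa1 summit alone.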
